A study of Mus musculus with 2 samples.

Results

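Mir191 and Mir425 are neighbouring microRNA (miRNA) genes on mouse chromosome 9, and their reads were followed here in small RNA sequencing of the hippocampus. They are 2 of the 2202 miRNA genes in the count tables and were taken by their GENCODE M21 gene names. The samples were hippocampal tissue (layer of hippocampus in the labels) of female B6CASTF1/J mice aged 36 days, the F1 hybrid of C57BL/6J and CAST/EiJ, with no treatment. The 2 libraries, biological replicates 1 and 2, form 1 group, so no condition was compared. Each has its own biosample entry and both name 1 donor entry, so p-values below measure only the difference between these libraries, which may be partly technical.

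A miRNA is cut from a hairpin in a longer transcript and guides Argonaute proteins to messenger RNAs that pair with its seed, bases 2 to 8. Genes that lie close together on 1 strand are often cut from a shared primary transcript, and their mature products can still reach very different levels. miR-191 is made in most tissues and is a common reference in PCR measurement of miRNAs. In hippocampal neurons it is known for targeting the messenger RNA of tropomodulin 2, an actin-capping protein, in work on the remodelling of dendritic spines. miR-425, made from the neighbouring hairpin, is best known from studies of tumours and of natriuretic peptide in the heart.

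The mature sequences show what the reads of each gene can be, since counts were per hairpin and did not tell the arms apart. They are given 5′ to 3′ from RefSeq (GRCm38.p6), with the seed in capitals.
miR-191-5p: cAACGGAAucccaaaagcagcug
miR-191-3p: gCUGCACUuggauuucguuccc
miR-425-5p: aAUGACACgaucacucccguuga
miR-425-3p: aUCGGGAAugucguguccgcc
The neighbours thus carry 4 different seeds. None of the other mature mouse miRNAs in that table shares the seed of miR-191-5p, miR-191-3p or miR-425-3p. Of the seeds in the table, 84.5% belong to a single gene symbol, so this is the usual case. The seed of miR-425-5p recurs once, in miR-489-3p, which is identical to it from base 1 up to base 8 and not beyond.
miR-489-3p: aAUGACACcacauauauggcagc
Mir489, on chromosome 6, had 0 reads in both libraries, where 0 reads allow up to 3 reads, or 1.02 and 0.823 CPM in replicates 1 and 2 (CPM, counts per 1000000 sense reads on miRNA genes).

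The hairpins differ in length and in where the mature forms sit. In the hairpins below the mature forms are in capitals. Mir191 (ENSMUSG00000105497.1) spans chr9:108568319-108568392 on the plus strand (mm10) and has 74 bases.
Mir191: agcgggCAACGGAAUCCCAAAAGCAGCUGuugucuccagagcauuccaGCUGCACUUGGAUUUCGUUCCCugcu
Mir425 (ENSMUSG00000065579.1) spans chr9:108568777-108568861 on the same strand and has 85 bases.
Mir425: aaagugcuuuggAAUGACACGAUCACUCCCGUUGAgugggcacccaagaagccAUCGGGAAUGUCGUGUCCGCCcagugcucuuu
Their GC content was alike, at 54.1% in each. The predicted minimum free energy was -35.0 kcal/mol for the shorter Mir191 hairpin and -31.7 kcal/mol for Mir425, with 56 paired bases in each. No stretch of 20 bases of either hairpin occurred in the same orientation in another annotated miRNA hairpin. All 4 mature sequences were found in that orientation in transcripts of only their own gene and of 4833445I07Rik among the GENCODE M21 transcripts. Copies in untranscribed sequence were not analysed here.

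The annotation places the hairpins in a long noncoding RNA and not in Dalrd3, the gene whose intron holds the human pair. The noncoding gene 4833445I07Rik spans chr9:108567533-108569174 on the plus strand and has 2 transcripts. Its unspliced transcript covers both hairpins, which lie 384 bases apart. In the spliced transcript Mir191 falls in the intron, chr9:108568181-108568483, and the last exon ends 3 bases upstream of the first base of Mir425. Dalrd3 starts at 108569886, 1025 bases downstream of Mir425. Ndufaf3, on the minus strand, has its 5′ end at 108567434, 885 bases from the first base of Mir191, and is transcribed away from it. The host transcript itself was not measured in these libraries of short inserts, under 30 nucleotides per the labels.

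**Figure D1:**
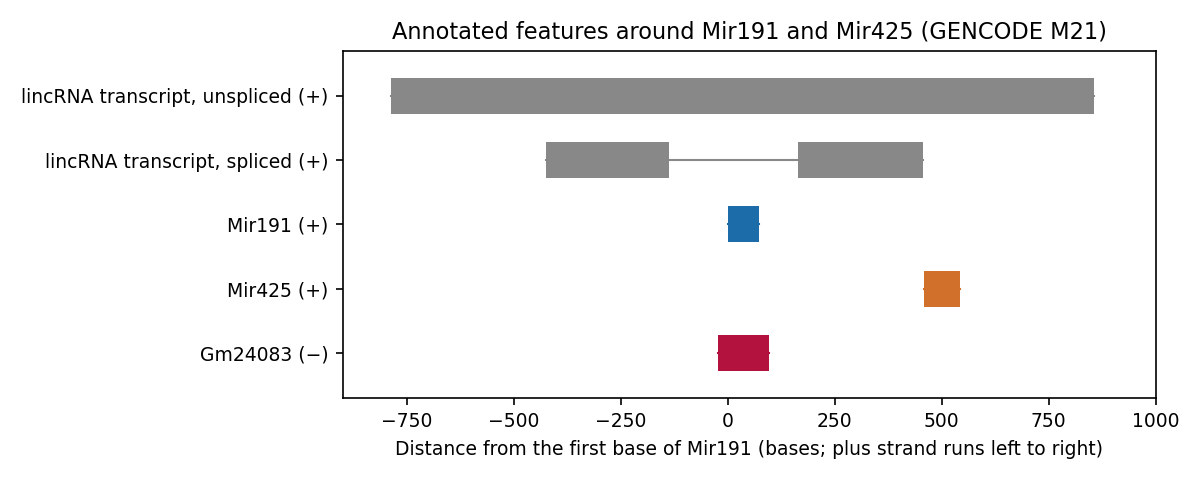
Features annotated around the hairpins, drawn to scale by distance in bases from the first base of Mir191 (x axis); boxes are exons or hairpins, the thin line is the intron, and signs give the strand. Mir191 lies inside the interval of Gm24083 on the opposite strand, whereas Mir425 has no miRNA gene opposite.

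By reads assigned to single genes, Mir191 was among the abundant miRNA genes in these libraries and Mir425 was at a moderate level. Mir191 had 33088 sense reads in replicate 1 and 53920 in replicate 2. These are 11300.0 CPM (exact Clopper-Pearson 95% interval 11179 to 11422), and 14796 CPM (14673 to 14921). Mir191 was thus higher in replicate 2, with intervals that do not overlap. Its mean was 13048 ± 2472 CPM (SD, n = 2), or 1.30% ± 0.247 of assigned reads. It stood 16th in replicate 1 and 11th in replicate 2 among all genes. Reads with several places, 38.9% and 45.8% of all reads, belong to no gene. Genes whose mature sequence has copies can therefore stand too low in this order, and the ranks and shares hold for assigned reads only.

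Mir425 had 2230 sense reads in replicate 1 and 2922 in replicate 2, which are 762 CPM (730 to 794) and 802 CPM (773 to 831). The intervals overlap. The mean was 782 ± 28.5 CPM (SD, n = 2), or 0.0782% ± 0.00285 of assigned reads, and the gene stood 111th and 107th. Counting alone gives a coefficient of variation of 0.550% and 0.431% for Mir191 and 2.12% and 1.85% for Mir425 in replicates 1 and 2. The observed coefficient of variation was 18.9% for Mir191, far above counting error, and 3.64% for Mir425. Reads were not collapsed by molecular identifiers here, so intervals and limits for 0 reads cover counting error only.

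The neighbours in rank show how far these places can be read. Above Mir191 stood Mir23b at 20770 ± 475 CPM and Mir99a at 24159 ± 9146 CPM, both farther from it than the larger SD. Below it stood Mir151 at 12478 ± 719 CPM and Mir126a, the endothelial miRNA, at 11742 ± 3922 CPM, neither of which differed from Mir191 beyond that spread. Around Mir425, Mir540 (820 ± 52.3 CPM), Mir467d (817 ± 213 CPM) and Mir296 (757 ± 65.4 CPM) did not differ from it beyond the spread. Mir300, at 752 ± 1.65 CPM, lay just outside. By distance of log2(CPM + 1) over the 2 libraries, the genes nearest to Mir191 were Mir151 (0.37), Mir652 (0.37) and neuronal Mir137 (0.39). Nearest to Mir425 were Mir300 (0.09), Mir540 (0.10) and Mir125b-1 (0.15). Likeness over so few libraries describes level more than pattern.

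Mir191 was 1.31-fold higher in replicate 2 (exact binomial 95% interval 1.29 to 1.33), a difference called by the two-sided exact binomial test on reads with Benjamini-Hochberg adjustment, whose p was too small to be recorded above 0. Mir425 was 1.05-fold higher (0.996 to 1.11), which was not called in that test (exact, adjusted p = 0.109). At Mir425 a difference above 1.11-fold lies outside the interval for counting error. The test called 58.0% of 474 genes, 31.6% higher in replicate 2, in a set that reaches down to 10 reads in all. With only genes averaging 100 or more reads kept, it called 214 of 258. Most genes read at such depth were called, so the call of Mir191 was usual and the lack of one at Mir425 less so. On the log2(CPM + 1) scale the ratio of replicate 2 to replicate 1 was 0.39 for Mir191 and 0.07 for Mir425. For the 295 genes whose counts averaged 50 or more, the SD of this ratio was 0.84 and the median absolute ratio 0.34. Of these genes, 134 differed more than Mir191 and 267 more than Mir425. Mir191 therefore differed about as much as the median gene, and Mir425 less than most.

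**Figure D2:**
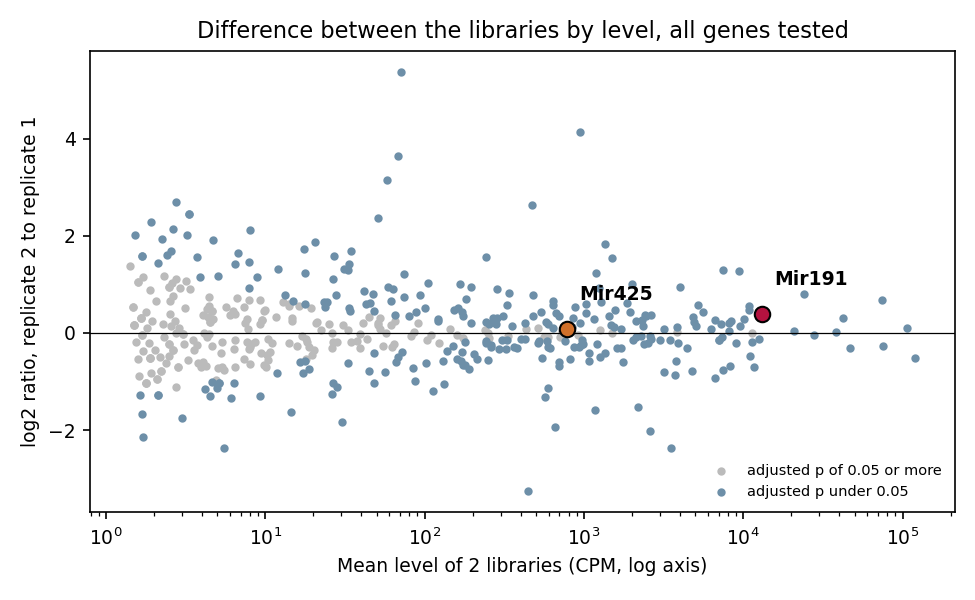
The log2 ratio of replicate 2 to replicate 1 (y axis) against mean level in CPM (x axis, log scale) for the 474 genes tested, 1 point per gene, coloured by the exact binomial test. Mir191, at 0.39, and Mir425, at 0.07, are the large labelled points, and both lie within the body of the other genes.

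Within each library Mir191 had many more reads than Mir425, and the proportion was not the same in both. The ratio of Mir191 to Mir425 reads was 14.8 in replicate 1 (exact 95% interval 14.2 to 15.5) and 18.5 in replicate 2 (17.8 to 19.2), or 16.6 ± 2.56 (SD, n = 2). Read lengths and the share of each arm were not measured here. Per base of hairpin it was 17.0 and 21.2. Mir425 gave 6.31% of the reads of the pair in replicate 1 and 5.14% in replicate 2. The ratio was 1.24-fold higher in replicate 2 (95% interval 1.18 to 1.32; two-sided Fisher's exact test on the reads, p = 7.3e-14). This comparison needs no library scaling. It compares 2 libraries with counting error as the only noise. How evenly the protocol captures the mature forms was not tested.

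A changed proportion was common among close neighbours. There were 60 pairs of adjacent miRNA genes on 1 strand, at most 1000 bases apart and with at least 10 reads each in each library, formed by 102 genes, some of them in several pairs. Fisher's exact test with adjustment over the pairs called a changed proportion in 80.0% of them. The log2 ratios of Mir191 and Mir425 between the libraries lay 0.31 apart. The median over the pairs was 0.43, with 20 pairs closer together and 39 farther apart. The level of Mir191 was 16.7-fold that of Mir425 by mean CPM, against a median of 6.62-fold between neighbours, and 15 pairs were more unequal. On chromosome 12, where large imprinted miRNA clusters lie, there were 24 of the pairs. Without them 12 of 36 pairs were closer together than Mir191 and Mir425, and 10 were more unequal in level. Some pairs, the most unequal among them, hold a gene whose mature sequence has copies elsewhere. Such a gene loses reads with several places, so the level gap of its pair is uncertain. The place of Mir191 and Mir425 among pairs without such genes was not tested.

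The count of Mir191 depended on the use of strand. Gm24083 (ENSMUSG00000092915.1), a predicted miRNA gene of 120 bases at chr9:108568295-108568414 on the minus strand, covers the whole of Mir191 and reaches 24 bases past one end and 22 past the other. Its sequence from the GENCODE M21 transcripts shows the overlap, with the part complementary to the Mir191 hairpin in capitals.
Gm24083: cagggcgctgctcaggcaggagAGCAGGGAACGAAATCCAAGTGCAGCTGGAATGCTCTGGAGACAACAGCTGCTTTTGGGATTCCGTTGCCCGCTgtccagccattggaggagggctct
Counted without strand, Mir191 and Gm24083 both had 0 reads in each library. Counted in sense orientation, Mir191 had its 33088 and 53920 reads and Gm24083 had 0 in both. The antisense reads of Gm24083 were the same 33088 and 53920, and Mir191 had 0 antisense reads. A count of 0 at Gm24083 allows up to 3 reads, or 0.00907% and 0.00556% of the reads at Mir191.

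Mir425, with no miRNA gene opposite, gave a check of the orientation that does not rest on Mir191. It had 2230 and 2922 sense reads, 2 and 0 antisense reads, and 2232 and 2922 reads without strand. Over the 2138 genes with no miRNA gene opposite, antisense reads were 0.00377% and 0.00319% of the stranded reads. Counting without strand lowered the library totals by 7.70% and 7.15%. The mean level of Mir425 came out 8.06% higher for that reason, at 845 CPM, and its place moved from 109 to 98.

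**Figure D3:**
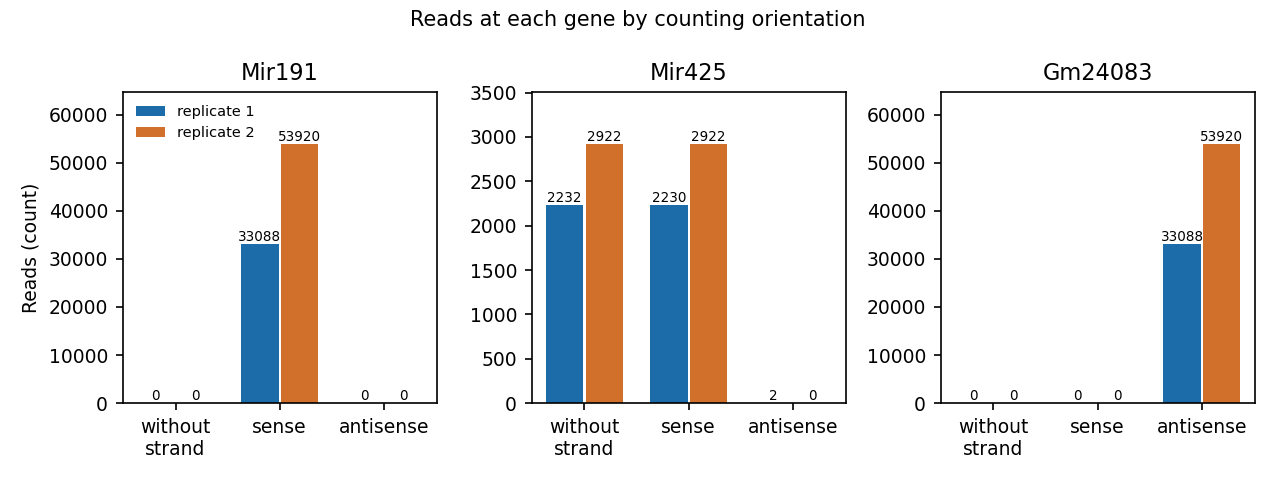
Reads (y axis, counts on separate linear scales) at Mir191, Mir425 and Gm24083 as counted in each of the 3 ways (without strand, sense, antisense), with 1 bar per library and the count above it. Mir191 has 0 reads without strand and all of its reads in sense, and Gm24083 shows the same reads as antisense.

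Mir191 held a large part of the reads lost in this way. In all, 64 miRNA genes overlap a miRNA gene on the opposite strand, 27 of them with at least 10 sense reads in each library. All 27 had fewer reads without strand in both libraries, and 24 had 0. The reads lost at the 64 genes numbered 225467 and 260829, equal to the ambiguous reads that the tables record without strand. Mir191 made up 14.7% of them in replicate 1 and 20.7% in replicate 2. By summed sense reads it was the second of the 64, after Mirlet7e (82550 and 99559 reads) and before Mir126a (42505 and 32684), Mir378a (13241 and 19131) and Mir30e (10817 and 14571). Without strand, Mirlet7e, Mir378a and Mir30e also had 0 reads in both libraries, and Mir126a had 1 and 2.

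The strand was as one-sided at Mir191 as at most such pairs. Of 26 opposite pairs with at least 10 reads in each library, 20 had 0 reads on the lesser strand in both, that of Mir191 among them. In 2 pairs the lesser strand held more than 1% of the reads in both libraries.

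As a gene used for PCR reference, Mir191 was set beside a list of 11 genes of miRNAs in such use, itself and Mir425 included. Mir191 had the highest level of the list, and the next was Mir361 at 6302 ± 232 CPM. Between the libraries, 6 genes were called higher in replicate 2, 2 higher in replicate 1 and 3 were not called. The median log2 ratio was 0.07, against 0.04 over all 474 genes tested. Higher in replicate 2 with Mir191 were Mir93 (1.35-fold), Mir16-2 (1.27-fold), Mir423 (1.23-fold), Mir16-1 (1.15-fold) and Mir361 (1.05-fold). Uncalled beside Mir425 were Mir25 (1.01-fold, interval 0.817 to 1.24) and Mir186 (0.933-fold, interval 0.846 to 1.03). The Mir103 genes went the other way, with Mir103-2 at 47.5 and 12.6 CPM and Mir103-1 at 9.90 and 1.10 CPM in replicates 1 and 2. The Mir103 and the Mir16 genes each share a mature sequence between copies, so their counts by gene are uncertain. Mir191 alone of the 11 has a miRNA gene opposite.

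**Figure D4:**
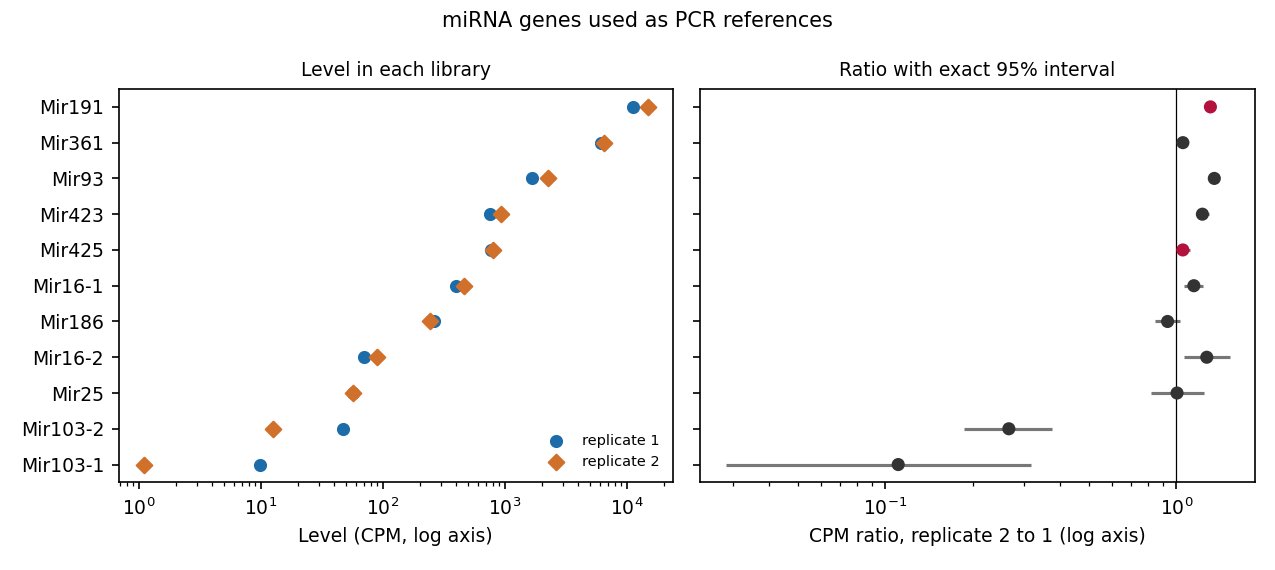
Left, level in CPM (log axis) in each library for the 11 genes of the reference list; right, the CPM ratio of replicate 2 to replicate 1 (log axis) with its exact 95% interval for counting error. Mir191 and Mir425, in red on the right, lie at 1.31 and 1.05, and the Mir103 genes lie far below 1.

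The 2 genes also differ as a possible scale between the libraries. Reads of Mir191 were 1.63 times as many in replicate 2 as in replicate 1, and reads of Mir425 1.31 times. Total sense reads on miRNA genes gave 1.24, edgeR's TMM factors 1.28 and DESeq2's size factors 1.27, so Mir425 lay nearer to these than Mir191. With totals as the scale, 150 genes were called higher in replicate 2 and 125 lower, against 133 and 134 with TMM factors, 141 and 132 with DESeq2 size factors and 126 and 142 once the top gene was taken out of the totals. A single gene as the scale moves all log2 ratios by 1 fixed amount, so the split then follows from the count ratios above and is no further evidence. It was 69 against 222 with Mir191 reads in place of totals, where the ratios moved down by 0.39, and 125 against 143 with Mir425 reads. These scales by a single gene were tried after the data were seen, and the test does not count the error of the scale itself.

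Depth and tissue were checked once. The count tables held 9595913 and 10489588 reads, of which 2928141 and 3644157 were sense reads on miRNA genes. Reads with several places made up 38.9% and 45.8% and belong to no gene. Of 12 genes of neuronal miRNAs, 8 had at least 10 reads in each library, and the list summed to 36659 and 41459 CPM. Its genes went both ways. Called higher in replicate 2 were Mir128-1 (4326 and 10622 CPM), Mir128-2 (850 and 1626 CPM), Mir137 (9112 and 12631 CPM) and Mir9-3 (111 and 132 CPM). Called higher in replicate 1 were Mir132 (12153 and 10636 CPM), Mir138-1 (6059 and 3502 CPM) and Mir138-2 (4030 and 2291 CPM). The defining Mir124a genes had 0 to 8 reads each, and copies that share a mature sequence lose reads to the class with several places. Markers of liver and muscle summed to 273 and 218 CPM, with 3 of 6 at 0 in both libraries. Most of that sum was Mir206 (234 and 174 CPM), called higher in replicate 1, whereas Mir122 (37.9 and 43.9 CPM) was not called. Blood markers summed to 1212 and 399 CPM, with 0 of 4 at 0. Endothelial Mir126a was at 14516 and 8969 CPM, higher in replicate 1, opposite to Mir191. Of the blood markers, Mir451a (1039 and 270 CPM) and Mir144 (115 and 57.6 CPM) were also higher in replicate 1, whereas Mir223 (1 and 23 reads) was called higher in replicate 2, as Mir191 was, and Mir142 (57.4 and 64.8 CPM) was not called. Their part in the difference at Mir191 was not tested.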

How the data were processed

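Small RNA libraries were made from total RNA with a multiplexed miRNA protocol, per the labels. The authors deposited whole-number read counts per miRNA gene, not normalized, in 3 unnamed columns per library, with assembly mm10 and annotation M21 named in the deposited notes. Which aligner was used is not given in the sources used here. Columns were taken, in order, as counts without strand, sense counts and antisense counts, an order that the Mir425 reads bear out. Rows naming no gene, 69.5% and 65.3% of reads, were left out. CPM used total sense reads; log2 values used a pseudocount of 1 CPM.

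Each gene with 10 or more reads in all was tested for a difference between the libraries (exact binomial test given the totals, two-sided, Benjamini-Hochberg adjusted, threshold 0.05); gene pairs used Fisher's exact test. The read test was tried on simulated data with counting error as its only noise. That trial cannot show how the test behaves with the larger spread between these libraries. A chi-square over genes was 256 times its degrees of freedom, so the libraries are no duplicate deposit. Positions and transcripts came from GENCODE M21, mature sequences from RefSeq, where 1032 of 2202 genes matched by symbol. Hairpins were folded with ViennaRNA 2.7.2.

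The members, the gene lists and the tests were chosen with earlier results of these data known. The text names the members, genes opposite, the genes 2 places either side in rank, the 3 nearest in pattern, the 5 most read genes with a gene opposite, the reference list, tissue markers and genes sharing a seed. Alternatives were counts without strand, TMM (edgeR 4.0.16), DESeq2 1.42.0 size factors, other totals, filters and distances, a pseudocount of 0.1 CPM and leaving out a replicate. Python 3.11.15, scipy 1.17.1 and R 4.3.3 were used.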

Additional observations from a re-analysis of the deposited data

How the results depend on the processing

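The call of Mir191 as higher in replicate 2 held under every alternative that gave a value, with log2 ratios from 0.32 (totals without the most abundant gene) to 0.39. Without strand it had 0 reads, so it has a level of 0 CPM and no ratio. The ratio of Mir425 kept its sign and stayed uncalled, from 0.00 (totals without the most abundant gene) to 0.07, with adjusted p from 0.0799 to 0.962 in the exact test. Levels per reads placed on the genome were 5370 CPM for Mir191 and 322 CPM for Mir425, by construction of a larger total. With smaller totals, Mir425 was at 845 CPM without strand and at 889 CPM without the most abundant gene. Leaving out either replicate gave 11300.0 to 14796 CPM for Mir191, 762 to 802 CPM for Mir425 and a log2 ratio of Mir191 to Mir425 of 3.89 to 4.21. The change of that ratio was 0.32 on the log2 scale with sense and antisense reads summed (0.31 with sense reads). The number of neighbour pairs closer together than Mir191 and Mir425 was 37 of 102 at up to 10000 bases, against 20 of 60. Called genes numbered 275 of 474 in the main setting and 267 to 291 of 474 under other scales, with 291 from Mir191 reads as the scale. They numbered 252 of 448 without strand, 229 of 2202 with no filter on low counts and 214 of 258 at a mean count of at least 100. The share called thus depended strongly on the filter. No paired analysis was possible because there is a single group. Depth limits what can be said of Gm24083 to 3 reads.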
